A study of Mus musculus with 4 samples.

Results

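*Abcg2*, 1 of the 16892 genes counted, encodes an efflux transporter of the ATP-binding cassette (ABC) family, and was followed as a single gene through all cells of the mouse epididymis and vas deferens. It gave 18448 unique molecular identifiers (UMIs, the count of captured mRNA molecules) in 1352 of 8880 cells, and 97.8% of these UMIs came from the vas deferens library. The cells fall into 34 populations named in the deposited table of cells, and those names are used here (PC is a principal cell population). *Abcg2* was chosen because its level was known to be high in the vas deferens, so the levels below describe that choice and no test was made of them. The populations used for the comparison within the vas deferens were the 4 in which at least 98% of cells came from that library, PC02, PC03, PC08 and PC13, together 1217 cells of which 1209 were vas deferens cells, 7 cauda cells and 1 a caput cell. PC02, at 98.8%, was the least pure of the 4, and the next lower value of any population was 94.2%, in the stromal population AngryVasStromal.

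The tissue came from 4 male FVB/NJ mice, 10 to 12 weeks old, whose 8 epididymides were cut into caput, corpus, cauda and vas deferens. The 8 pieces of a region were pooled, depleted of sperm, dissociated and made into a single 10x library, which counts tags from the 3′ ends of transcripts. Every group is therefore 1 library from the same 4 animals, no value has a replicate, and all intervals given are 95% intervals for counting error alone. Intervals of levels and of their ratios treat UMIs as independent and leave out the spread between cells.

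ABCG2, also called breast cancer resistance protein, works as a dimer in the plasma membrane and uses ATP to move substrates out of the cell. Its substrates include drugs and dietary toxins, sulfate conjugates of steroids, urate, riboflavin and heme-related porphyrins, and it is known from the apical membranes of placenta, gut and liver and from the luminal membrane of the brain endothelium. Principal cells are the absorbing and secreting cells of the epididymal and vas deferens epithelium. On GRCm38, the assembly to which the authors aligned, the gene lies on chromosome 6 from 58584523 to 58695676 on the plus strand (ENSMUSG00000029802.13, GENCODE vM21). No other gene of that annotation overlaps it, on either strand.

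The libraries held 1433 (caput), 2325 (corpus), 1616 (cauda) and 3506 (vas deferens) cells with 4408989 to 10744928 UMIs each. The authors had subtracted ambient RNA, estimated for each library, before deposit, and single *Abcg2* UMIs were spread differently over the libraries. In the vas deferens library 0 of 1123 positive cells held exactly 1 *Abcg2* UMI and 211 held 2, whereas 67 of 87 positive cells in the caput, 65 of 96 in the corpus and 31 of 46 in the cauda held 1. Of 8044 genes with at least 100 positive cells in the vas deferens library, 246 (3.06%) likewise had no cell with 1 UMI, and the median gene had 83.4% of its positive cells at 1 UMI. Shares of positive cells are therefore not on the same footing in the vas deferens and the epididymis, and shares of cells with at least 2 UMIs are given beside them. The part that the missing single UMIs play in levels compared between libraries was not tested. Between libraries 43 barcodes were shared (86 cells, among them 9 cells of the vas deferens principal populations and 3 endothelial cells), and without those cells the levels given below were 3831 UPM in the vas deferens principal populations, 89.4 in the other principal populations and 627 in the endothelium.

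Among the 34 populations *Abcg2* was highest in the 4 vas deferens principal populations, then in the mixed principal population PC14 and then in the endothelium. Levels are UMIs of *Abcg2* summed over a population per 1000000 UMIs of that population (UPM). PC03 held 4915 UPM (interval 4764 to 5069), PC08 4222 (4115 to 4331), PC13 4155 (3973 to 4342) and PC02 2879 (2799 to 2960). PC08 and PC13 did not differ beyond counting error (ratio 1.02, 0.965 to 1.07), whereas PC03 was 1.16-fold above PC08 (1.12 to 1.21) and PC13 1.44-fold above PC02 (1.37 to 1.52). PC02 was 2.59-fold above PC14, and PC14, at 1113 UPM, 1.79-fold above the endothelium (1.56 to 2.04). By share of cells that order was reversed: 38 of 244 PC14 cells were positive and 128 of 245 endothelial cells. The 4 vas deferens principal populations gave 16891 of the *Abcg2* UMIs, or 91.6%.

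Below the endothelium the level dropped 4.61-fold to the next population. The endothelium held 624 UPM (571 to 680) and the stromal population StromalIL6 135 (95.7 to 186). StromalIL6 and the muscle population MuscleGfra4 (92.5 UPM) did not differ beyond counting error, and MuscleGfra4 was 1.42-fold above the main clear cells, named Clear (65.2 UPM). From Clear downward each population overlapped the next as far as PC09 (15.5 UPM), and only the last step, to PC01 at 2.06 UPM, was again larger than counting error (7.53-fold, 1.07 to 327). That step rested on 1 vas deferens cell, which held 8 of the 10 UMIs of PC09, and the 346 corpus cells of PC09 were at 3.34 UPM (0.404 to 12.0). In 9 populations, PC04, PC06, PC12, Narrow, ClearKrt14, BasalMacrophages, Macrophages, Dendritic and TCell, no *Abcg2* UMI was found. With 3 UMIs taken as the limit that 0 UMIs leave, the level could be as high as 3.56 UPM in PC04, which had the most UMIs of the 9, and 128 UPM in BasalMacrophages, which had the fewest.

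**Figure D1:**
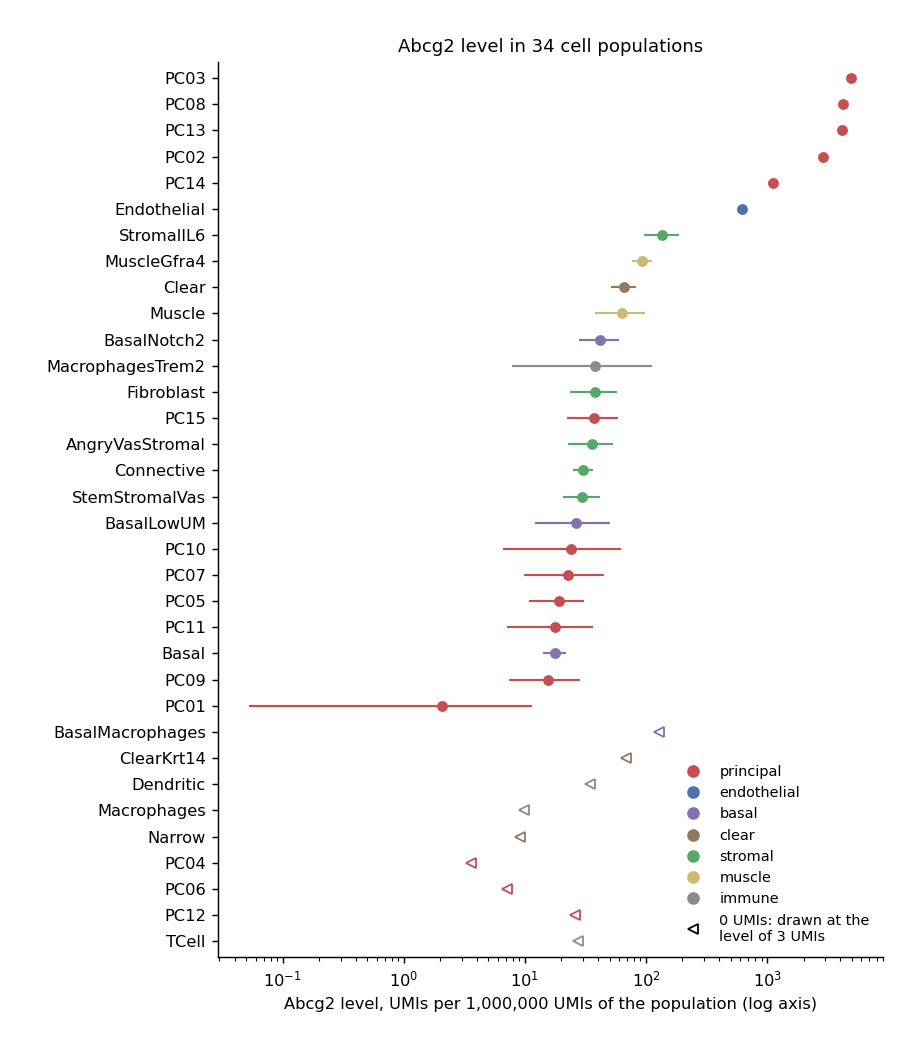
*Abcg2* level in each of the 34 populations, in UMIs per 1000000 UMIs on a log axis, colored by cell type. Points are summed levels with 95% Poisson intervals, and open triangles mark the 9 populations with 0 UMIs at the level that 3 UMIs would give. The 4 vas deferens principal populations lie between 2879 and 4915 UPM, above PC14 and the endothelium.

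Summed, the vas deferens principal populations held 3818 UPM (3761 to 3876) and the other 11 principal populations 91.0 UPM (82.98 to 99.7), a ratio of 41.9 (38.3 to 46.1). By the size of this ratio *Abcg2* was 14th of 10399 genes with at least 20 UMIs in either group, of which 3.15% were at least 4-fold higher in the vas deferens populations and 10.9% at least 4-fold lower. The value of the other populations rested on PC14, whose cells came from both the cauda and the vas deferens. In PC14 the 100 vas deferens cells gave 401 *Abcg2* UMIs (3775 UPM) and the 141 cauda cells gave 2 (7.86 UPM). When principal cells were instead split by library, whatever their population, the vas deferens held 3694 UPM and the 3 epididymal libraries together 12.5, a ratio of 296 (230 to 387).

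The few cells of one region that sat in a population of the other were looked at on their own. PC08 held 4 cauda cells, and 2 of them gave 15 of the 19 *Abcg2* UMIs of all cauda principal cells. Conversely, 26 vas deferens cells in PC11 held 6 UMIs (45.5 UPM, 16.7 to 99.1), far below the vas deferens cells of PC14. In PC07, 1 of 16 vas deferens cells was positive, with 7 UMIs, and the single vas deferens cell of PC09 held 8.

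Almost every deep cell of the vas deferens principal populations contained *Abcg2*. Of cells with at least 5000 UMIs, 99.3% in PC02 and 100% in PC03, PC08 and PC13 were positive. With each cell thinned to 1000 UMIs and shallower cells left out, 86.1% of 722 cells were positive (83.4 to 88.6), against 1.62% of 1172 cells in the other principal populations, 38.0% of 200 endothelial cells (31.2 to 45.1) and 2.60% of 3609 other cells. The thinned share was 94.4% in PC13, 92.5% in PC03, 87.8% in PC08 and 77.0% in PC02, and thinning left out 495 of the 1217 cells. Without thinning the shares were 75.1%, 2.99%, 52.2% and 4.87%, at median depths of 1414, 767, 2590 and 3079 UMIs per cell. At 2 or more UMIs without thinning they were 75.1%, 1.75%, 46.1% and 2.44%. Immune cells, which are not expected to carry the transporter at an epithelial level, had the lowest share of the cell types. Among them 0 of 158 thinned cells were positive (a limit of 1.90%, from 3 cells), and 1.03% of 195 without thinning at a median of 2887 UMIs. Of the 158, 91 came from the vas deferens library, where no cell held exactly 1 *Abcg2* UMI. Of the 19 thinned positive cells of the other principal populations, 10 were among the 28 vas deferens cells of PC14 (35.7%, 18.6 to 55.9). In the same library the thinned share was 2.52% in muscle, 3.05% in stromal, 3.21% in basal and 22.7% in clear cells (7.82 to 45.4).

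**Figure D2:**
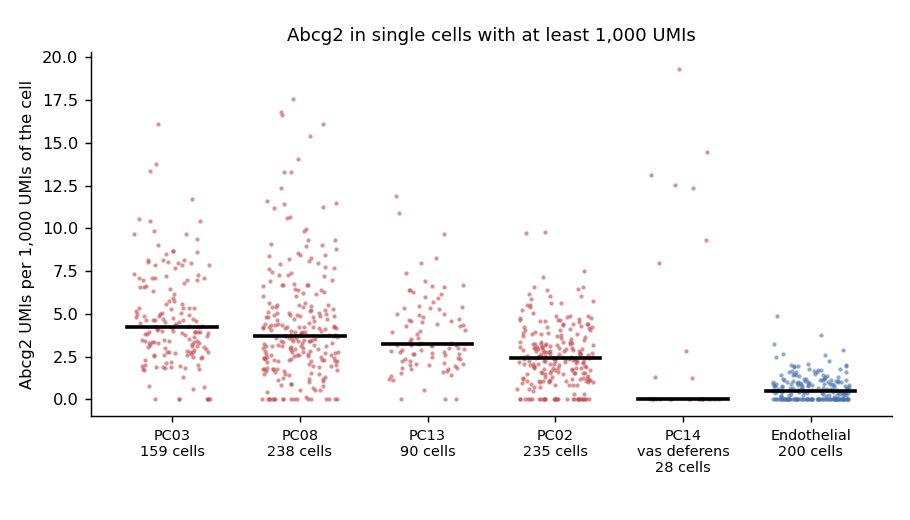
*Abcg2* UMIs per 1000 UMIs in single cells with at least 1000 UMIs (1 point a cell, black line the median). Medians lie between 2.41 and 4.24 in the 4 vas deferens principal populations and at 0.467 in the endothelium, while most vas deferens cells of PC14 lie at 0 and a few reach up to 19.3.

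Within populations the amount per cell was graded. Among PC03 cells with at least 1000 UMIs, the median was 4.24 *Abcg2* UMIs per 1000, the 10th percentile 1.89, the 90th 8.22 and the highest cell 16.1, and 7 of 159 cells were at 0. In PC02 the median was 2.41 and the highest cell 9.78, and 31 of 235 cells were at 0. PC08 had a median of 3.73 with a maximum of 17.6 and PC13 a median of 3.22 with a maximum of 11.9. The plot of single cells shows 1 continuous cloud in each of these populations. The 28 vas deferens cells of PC14 deep enough to be compared were unlike them: 18 were at 0 and the 90th percentile was 12.7.

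The lower level of PC02 moved with the depth of its cells. Its summed level was 1090 UPM in 46 cells below 500 UMIs, 1351, 1637 and 2299 UPM in the next bins, and 3081 UPM (2991 to 3172) in 138 cells with at least 5000 UMIs. No such order was seen in PC03 (5147 UPM below 500 UMIs and 5003 in the deepest cells) or in PC08 (4979 and 4096), while PC13 went from 2944 UPM in 17 cells below 500 UMIs to 4408 in the deepest, with 3403 UPM in the bin between 2500 and 5000. In the deepest cells PC02 was still the lowest of the 4, below 4096 UPM in PC08. The vas deferens cells of PC14 ran the other way, from 7472 UPM below 500 UMIs to 3540 UPM between 1000 and 2500 UMIs. The part that depth plays in these levels was not tested.

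By level, the endothelium was the second cell type for *Abcg2*, after principal cells, and in the epididymis it was the first. By UMIs it was not the larger part there: it gave 172, principal cells 61 and all other cells 179, of which 121 were stromal. All 14 endothelial markers were detected in the endothelium, among them the adhesion molecules *Pecam1* (660 UPM) and *Cdh5* (652), with 6583 UPM summed over the list, against 11.1 UPM in the vas deferens principal populations, where *Tie1*, *Tek* and *Ptprb* were at 0. The 50 endothelial cells of the caput held 318 UPM (232 to 425), the 39 of the corpus 450 (354 to 565), the 12 of the cauda 709 (531 to 928) and the 144 of the vas deferens 768 (689 to 853). Cauda and vas deferens did not differ beyond counting error (1.08-fold, 0.809 to 1.47), nor did corpus and caput (1.42-fold, 0.965 to 2.10), while the vas deferens was 2.42-fold above the caput. Summed over the 3 epididymal libraries the endothelium held 452 UPM, and the vas deferens was 1.70-fold higher (1.41 to 2.05). That is below the 4-fold at which a gene was called, which 2.15% of 3634 genes reached toward the vas deferens and 2.53% toward the epididymis. Markers of other cell types moved with the same split. The pericyte list summed to 28.6 UPM in vas deferens endothelium and 407 in epididymal endothelium, the stromal list to 257 and 959, the muscle list to 216 and 715 and the immune list to 660 and 23.6, and their part in the difference of *Abcg2* was not tested.

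**Figure D3:**
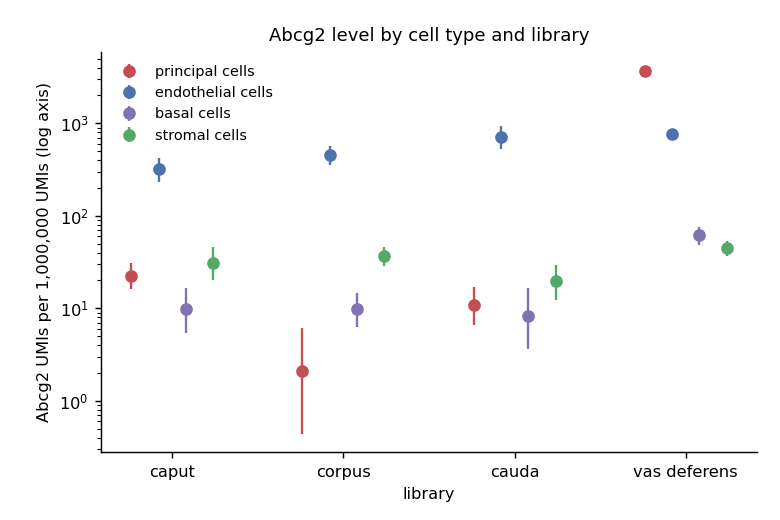
*Abcg2* level of principal, endothelial, basal and stromal cells in each library, in UMIs per 1000000 UMIs on a log axis, with 95% Poisson intervals. Endothelial levels run from 318 to 768 UPM, while principal cells lie between 2.11 and 22.6 UPM in the epididymal libraries and at 3694 UPM in the vas deferens.

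Principal cells and endothelium stood in opposite order in the epididymis and the vas deferens. Caput principal cells held 22.6 UPM, corpus principal cells 2.11 and cauda principal cells 10.9, which is 0.0712, 0.00470 and 0.0154 of the endothelial level of the same library. In the vas deferens they held 3694 UPM, 4.81 times the endothelial level (4.33 to 5.37). Over all libraries the vas deferens principal populations were 6.12-fold above the endothelium (5.61 to 6.69), which in turn was 6.85-fold above the other principal populations (6.04 to 7.78). Of 9544 genes compared between vas deferens principal cells and endothelium, 10.6% were called higher in the principal cells and 13% higher in the endothelium, and *Abcg2* was among the first. Of 10446 genes compared between endothelium and the other principal populations, 11.3% were called higher in the endothelium, *Abcg2* among them, and 9.92% lower.

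Endothelial *Abcg2* was compared with *Akr1b7*, an aldose reductase of vas deferens principal cells and among the most abundant RNAs there. In the vas deferens library the endothelium held 1.63 *Abcg2* UMIs for each *Akr1b7* UMI (1.37 to 1.94), and the principal populations 0.0707 (0.0696 to 0.0718). Basal cells of that library held 0.0628 (0.0497 to 0.0784), clear cells 0.106, stromal cells 0.105 and muscle cells 0.114. The endothelial ratio lay far above the principal one, while those 4 cell types ran from 0.0628 to 0.114. The principal ratio was not uniform: it ran from 0.0511 in PC03 to 0.0875 in PC02, and vas deferens cells of PC14 held 0.312 (0.278 to 0.350). Immune cells held 2 *Abcg2* UMIs beside 196 of *Akr1b7*. In the epididymis, 51 endothelial cells held 172 *Abcg2* UMIs beside 1 *Akr1b7* UMI.

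Endothelial cells with and without *Abcg2* also differed in other markers. The 128 positive cells held 7553 UPM of the endothelial list and 29.4 UPM of the pericyte list, and the 117 negative cells 4389 and 590 UPM, at median depths of 3374 and 1797 UMIs. The higher pericyte level was in the negative cells of the epididymis (1148 UPM in 50 cells). The part of depth in these differences was not tested. Cells with at least 2 UMIs of lymphatic markers held 506 UPM of *Abcg2* (333 to 736; 17 cells) and cells with none 627 (570 to 689; 211 cells), a ratio of 1.24 (0.840 to 1.90) within counting error.

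In the remaining cell types *Abcg2* sat in few cells, and many of those cells also held RNA of principal or endothelial cells. In MuscleGfra4, 17 positive cells held 8481 UPM of *Akr1b7* and the 223 negative cells 39.2, and 7 of the 17 were called doublets. In Clear, 10 positive cells held 10090 UPM of *Akr1b7* and the 206 negative cells 24.3. In the main basal population (Basal), 35 positive cells held 2149 UPM of the endothelial list and the 882 negative cells 40.1. The 8 positive cells of BasalNotch2 were high in both, with 5560 UPM of *Akr1b7* and 5690 UPM of endothelial markers. The positive cells of StromalIL6 (15) and of the vas deferens population StemStromalVas (15) held 3378 and 2395 UPM of *Akr1b7*, against 33.99 and 200.4 UPM in their negative cells. With called doublets left out, the level over all cells that were neither principal nor endothelial was 26.0 UPM, against 35.0 with them.

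Low counts in the epididymis did not have that pattern everywhere. In the caput, *Abcg2* was found in 14 of 144 cells of PC15 (37.2 UPM, 22.4 to 58.2) and at 18.95 UPM in PC05 and 24.1 UPM in PC10. Caput principal cells were 10.7-fold above corpus principal cells (3.40 to 54.1) and 2.28-fold above basal cells of the same library (1.21 to 4.55), and lay within counting error of caput stromal cells (0.728, 0.432 to 1.25). Their 34 positive cells held 1 or 2 UMIs each, with 1 *Akr1b7* UMI in all and 41.5 UPM of endothelial markers against 66.9 in negative cells, but a median depth of 3508 UMIs against 792. The stromal population Connective held 90 *Abcg2* UMIs in 81 of its epididymal cells, with 0 *Akr1b7* UMIs and 307 UPM of endothelial markers, against 167 UPM in its negative cells. Stromal cells of the epididymis were 3.19-fold above basal cells (2.26 to 4.59). Whether these single UMIs are ambient RNA was not tested.

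Among ABC transporters *Abcg2* was set beside its relatives. Of 51 members counted, 26 had at least 20 UMIs in the vas deferens or the other principal populations. Only *Abcg2* was called higher in the vas deferens, as were 3.15% of all genes. *Abcg2* was chosen for its level in the vas deferens, so its own call is no result about the family. Called lower there were 6, against 10.9% of all genes: the lipid transporters *Abca2* (7.91 UPM in the vas deferens populations, 239.7 in the other principal populations) and *Abca4* (0 and 21.8), *Abcb5* (3.16 and 274), the cyclic nucleotide and drug exporter *Abcc4* (0 and 8.17), the sulfonylurea receptor *Abcc8* (0.226 and 11.3) and the chloride channel *Cftr* (0 and 6.81). The median log2 ratio over the 26 was -0.80, against 0.05 over all genes tested. The next highest by ratio was *Abcd3*, a peroxisomal transporter, at 87.5 and 60.9 UPM (1.44-fold, 1.24 to 1.67). *Abca3* (120 and 173 UPM) was the second most abundant ABC transporter of the vas deferens populations by UMIs, which with 3′ tags do not grow with transcript length.

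The other members of the G subfamily had few UMIs. *Abcg1*, a sterol exporter, gave 247 UMIs in the whole table and 10 in the vas deferens principal populations (2.26 UPM), with its highest level in clear cells (48.6 UPM). *Abcg3* gave 3 UMIs in all, *Abcg4* 12 and *Abcg5* 1. Neither *Abcb1a* nor *Abcb1b*, which encode the drug exporter P-glycoprotein, had a UMI in the vas deferens principal populations, where 0 UMIs set a limit of 0.678 UPM. The endothelium carried *Abcb1a* at 206 UPM beside its *Abcg2*, a pair known from brain endothelium, with 11.97 UPM of *Abcb1b*. In the endothelium *Abcb1a* was lower in the vas deferens, at 128 UPM, than in the pooled epididymal libraries, at 299.5 (ratio 0.426, 0.305 to 0.589), neither gene reaching the 4-fold limit there.

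**Figure D4:**
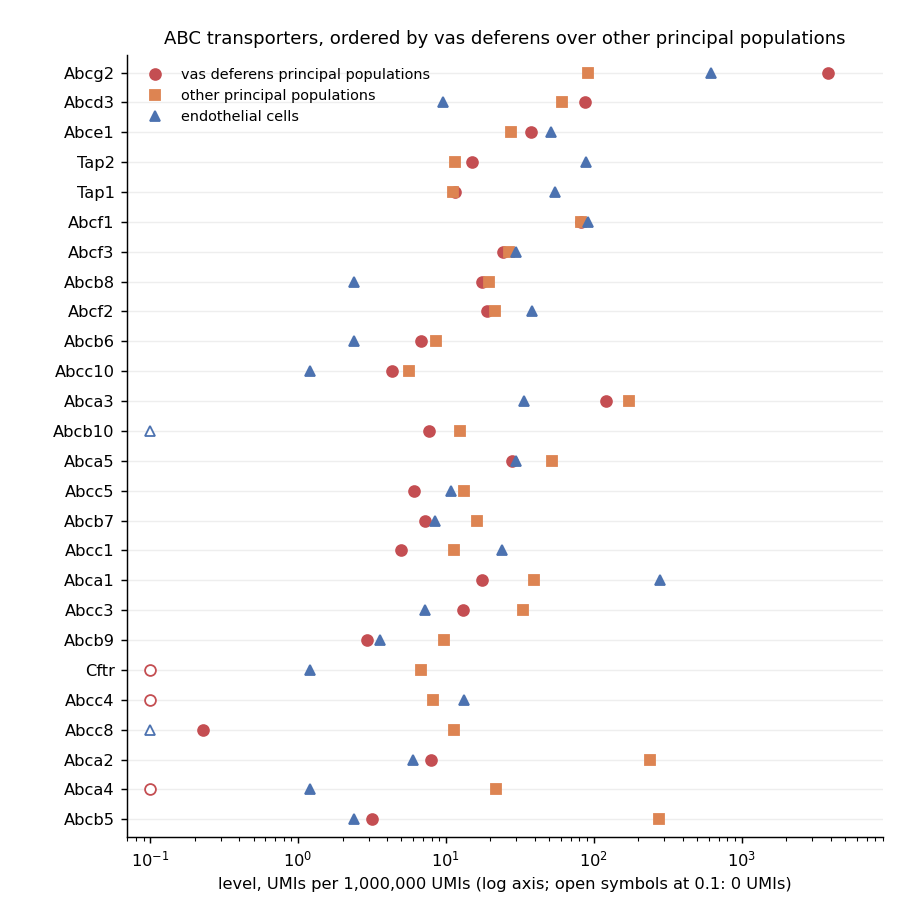
Levels of the 26 ABC transporters with at least 20 UMIs in either group of principal populations, in UMIs per 1000000 UMIs on a log axis, for vas deferens principal populations (circles), other principal populations (squares) and endothelium (triangles). Open symbols at the left edge stand for 0 UMIs. *Abcg2* at 3818 UPM lies apart from the other members in the vas deferens, none of which exceeds 120 UPM.

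Factors proposed to act on the *Abcg2* gene were looked up in the same comparisons. Of 24 listed factors 16 were tested against the other principal populations, 0 were called higher in the vas deferens and 2 lower, the hypoxia factor *Epas1* (1.81 and 10.3 UPM) and the estrogen receptor *Esr1* (0.226 and 5.64), with a median log2 ratio of -0.07. At the 3.15% and 10.9% of all genes, such counts do not set the list apart. Against the endothelium 0 of 15 were called higher in vas deferens principal cells (10.6% of all genes) and 5 lower (13%). These were the xenobiotic sensor *Ahr* (12.2 and 231 UPM), the oxidative stress factor *Nfe2l2* (77.3 and 310.1), *Hif1a* (74.1 and 553), *Epas1* (1.81 and 233) and the glucocorticoid receptor *Nr3c1* (19.4 and 164). These 5 were also called higher in the endothelium than in the other principal populations, 5 of 16 against 11.3% of all genes, with *Ahr* at 22.0 UPM, *Nfe2l2* at 52.5, *Hif1a* at 75.7, *Epas1* at 10.3 and *Nr3c1* at 25.5 in those populations. Both comparisons use the same endothelial cells. Within the endothelium, *Arnt*, the partner of AHR, and *Sp1* were called higher in the vas deferens than in the epididymis (77.0 and 15.8 UPM, 43.99 and 10.5 UPM). They were 2 of 10 tested, against 2.15% of all genes, and *Sp1* lay at the limit of 20 UMIs.

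Targets of AHR and NRF2 were looked up in the same comparisons, and *Nqo1* is on both lists. Of 3 AHR targets tested, *Tiparp* (27.1 and 175 UPM) and *Nqo1* (2.49 and 32.7) were called lower in the vas deferens than in the other principal populations. None was called higher, where 10.9% of all genes were called lower and 3.15% higher. Of 16 NRF2 targets 0 were called higher and 1, again *Nqo1*, lower, beside the same shares of all genes, with a median log2 ratio of 0.08. Against the endothelium 2 of 15 NRF2 targets were called higher in vas deferens principal cells (10.6% of all genes), the pentose phosphate enzymes *G6pdx* (39.1 and 9.58 UPM) and *Tkt* (257.7 and 49.1). Called lower was 1 (13% of all genes), the heme oxygenase *Hmox1* (19.9 and 184). *Hmox1* was also called higher in the endothelium than in the other principal populations (184 and 26.1 UPM), as was *Cyp1b1* of the AHR targets. These were 1 of 16 NRF2 targets and 1 of 3 AHR targets, against 11.3% of all genes. The endothelium held more *Cyp1b1* (44.3 UPM) than either principal group (1.36 and 4.67). Its vas deferens part had 8.80 UPM and its epididymal part 86.7. Over the same split the pericyte list summed to 28.6 and 407 UPM, and the cause of the *Cyp1b1* difference was not tested.

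The region before the gene's starts is given because these factors are proposed to bind there. RefSeq places 3 starts of *Abcg2* on GRCm38.p6, and tags at the 3′ end cannot tell which of them these cells used. Of the 3 windows of 250 bases upstream, the one before the third start had a GC content of 67.6% with 23 CpG, against 51.2% and 50% before the others and a median of 52.4% over 32817 windows of the same length. It lies at chr6:58640296-58640545 on the plus strand and overlaps no annotated exon of the gene. Capitals mark GGGCGG or its reverse complement, the GC box bound by SP1.
Abcg2, 250 bases before the third start: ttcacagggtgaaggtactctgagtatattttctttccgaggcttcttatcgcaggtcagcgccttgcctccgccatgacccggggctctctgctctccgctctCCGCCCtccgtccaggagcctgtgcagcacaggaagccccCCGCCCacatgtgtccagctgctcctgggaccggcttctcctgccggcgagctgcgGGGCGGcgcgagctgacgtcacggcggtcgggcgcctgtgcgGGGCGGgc
It holds 4 GC boxes, the window before the second start 2 and that before the first 0, and 32.7% of all windows hold at least 1. The AHR core GCGTG (28.1% of all windows) and the HIF core ACGTG (16.6%) were in none of the 3 windows on either strand. TGANNNNGC, a loose pattern used to search for the antioxidant response element (35.2%), occurred 1 time, in the first window. Its 4 N stand for any base, so this match (GCATATTCA on the plus strand) need not be a full element. The motifs did not overlap one another. These matches describe letters in short windows and were not set against the levels.

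Genes that handle proposed substrates of ABCG2 were compared between vas deferens and other principal populations, where 3.15% of all genes were called higher and 10.9% lower. With lists this short, 1 gene called is no result about a list. For heme, 1 of 19 tested genes was called higher in the vas deferens, *Pgrmc1*, a heme-binding membrane protein (2204 and 479 UPM, 4.599-fold), and 1 lower, *Slc46a1*, a folate and heme importer (3.16 and 15.95 UPM). The median log2 ratio of the list was -0.17. For purines and urate 1 of 8 was called higher, *Aprt*, which salvages adenine (72.1 and 6.81 UPM), and 1 lower, the urate carrier *Slc2a9* (0 and 4.28). For riboflavin and folate 1 of 7 was called higher, the folate receptor *Folr1* (169.5 and 38.3 UPM), and 2 lower, the riboflavin carrier *Slc52a3* (1.81 and 46.7) and *Slc46a1*. For sulfate conjugation 0 of 8 were called higher and 3 lower, among them the estrogen sulfotransferase *Sult1e1* (4.29 and 40.7).

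Other carriers and the apical machinery were set beside *Abcg2* in the same way. Of 11 other drug and conjugate carriers tested, 3 were called higher in the vas deferens (3.15% of all genes): *Slco2a1*, the prostaglandin transporter (644 and 45.9 UPM, 14.03-fold), *Slc28a3*, a nucleoside carrier (55.6 and 12.8), and *Slc22a18* (8.59 and 2.14). Lower were 6 (10.9% of all genes), among them the carnitine carrier *Slc22a5* (6.78 and 52.7). Of 13 genes of the apical membrane and cell polarity, 0 were called higher than in the other principal populations and 2 lower, the brush border cadherins *Cdhr2* and *Cdhr5*, both at 0 in the vas deferens. Against the endothelium 7 of 11 were called higher in vas deferens principal cells (10.6% of all genes), among them *Ezr*, which ties membranes to actin (481 and 40.7 UPM), and *Crb3* (111 and 3.59). Of 13 carriers and junction genes of barrier endothelium, 8 were tested between the principal groups. The lipid transporter *Mfsd2a* was the 1 called higher in the vas deferens (239.8 and 57.2 UPM), and 3 were called lower. Between endothelium and the other principal populations, 3 of 11 were called higher in the endothelium (11.3% of all genes): *Cldn5* (414 UPM there), *Slco1a4* (115 UPM) and *Abcb1a*. Called lower there were 2 (9.92% of all genes), *Slc16a1* (15.6 UPM, against 139) and *Tfrc* (5.99 UPM, against 43.2).

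Across the 34 populations the pattern of *Abcg2* was most like that of other vas deferens principal genes. Likeness was Pearson's r of log2(UPM + 10) over populations, computed for 11614 genes and given as a description, since populations share libraries and depth. The 10 most alike were *Eci3*, a peroxisomal isomerase of fatty acid oxidation (0.90), the crystallins *Crygb* (0.89) and *Crygc* (0.87), the water channel *Aqp2* (0.88), *Nrk* (0.87), D630023F18Rik (0.87), the potassium channel *Kcnj16* (0.86), *Mro* (0.85), the NADPH-producing dehydrogenase *Idh1* (0.85) and *Akr1b7* (0.85). What they did not share with *Abcg2* was the endothelium: 9 of the 10 were at 0 to 14.4 UPM there, and *Akr1b7* at 257. Apart from genes that the study had named for the vas deferens, the closest members of the gene lists were *Slco2a1* (0.77, rank 39 of 11614) and *Mfsd2a* (0.68, rank 104), while the closest ABC transporter, *Abcd3*, was at 0.36 (rank 1588). Without the vas deferens library the list changed entirely, with 0 of the 10 genes kept, and was led by *Rapgef4* (0.81) and the endothelial junction gene *Esam* (0.74). A list of 14 genes that the study had named for the vas deferens, chosen on these same cells and so no independent evidence, had 12 called higher there.

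Within the vas deferens populations, cells with more *Abcg2* had more *Ptgs2*. Co-variation was Pearson's r over cells of log counts after thinning to 1000 UMIs, taken in each of the 4 populations (235, 159, 238 and 90 cells of PC02, PC03, PC08 and PC13) and averaged by cells over 1013 genes with at least 100 thinned UMIs. Thinning evens the counts but not what else differs with a cell's depth before it. In PC02 *Abcg2* was at 1637 UPM between 1000 and 2500 UMIs and at 3081 UPM from 5000 UMIs up. The part of that depth, or of the ambient subtraction, in these r values was not tested. *Ptgs2*, the inducible cyclooxygenase that begins prostaglandin synthesis, led with a mean r of 0.40 and was at 0.41 in PC02, 0.36 in PC03, 0.43 in PC08 and 0.36 in PC13. Pooled over the 4 populations, the 622 thinned cells with *Abcg2* held 2.79 *Ptgs2* UMIs per 1000 and the 100 cells without it 0.83. Such pooled values, here and for the next genes, also hold differences between populations. The share of thinned cells with *Abcg2* was 77.0% in PC02 and 94.4% in PC13. *Pgrmc1* followed at 0.27 (2.397 and 1.12 UMIs per 1000), and then *Hspa5*, the main chaperone of the endoplasmic reticulum, at 0.25 (1.67 and 0.64). *Slco2a1*, which takes up prostaglandins, was at 0.25 (0.613 and 0.26) and the amyloid precursor relative *Aplp2* at 0.24 (0.662 and 0.25).

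The rest of the 9 highest were *Glb1l2* (0.21), the ubiquitin ligase *Mycbp2* (0.21), the chaperone *Hsp90b1* (0.20) and the adhesion molecule *Epcam* (0.20), and each of the 9, chosen by its mean over these populations, was positive in all 4, as were 169 of the 1013 genes. Over all genes the median mean r was -0.01, 98 genes reached 0.1 and 7 reached 0.2. All 7 were among the 9 just named. The values for *Epcam* were uneven, at 0.10 and 0.11 in PC02 and PC08 and 0.37 in both PC03 and PC13. The 5 lowest encode ribosomal proteins: *Rpl10* (-0.28), *Rpl41* (-0.26), *Rpl32* (-0.25), *Rpl19* (-0.24) and *Rpl36a* (-0.23). They depended on the setting, since without thinning, on UMIs per 10000, their r was between -0.09 and 0.09 and 3 of the 5 turned positive, whereas *Ptgs2* stayed between 0.39 and 0.45, and *Slco2a1* between 0.24 and 0.35, over the 7 settings tried. These 7 include the main setting and that of principal populations only, which gave the same values and could not differ here. *Akr1b7*, *Aqp2* and the crystallins, which shared the pattern over populations, did not stand out among cells, as 7 of the 14 vas deferens genes named by the study had a positive r, with a median of -0.01. Of the heme list 3 genes could be compared, with *Pgrmc1* the highest and *Tmem14c* (0.01) the lowest.

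**Figure D5:**
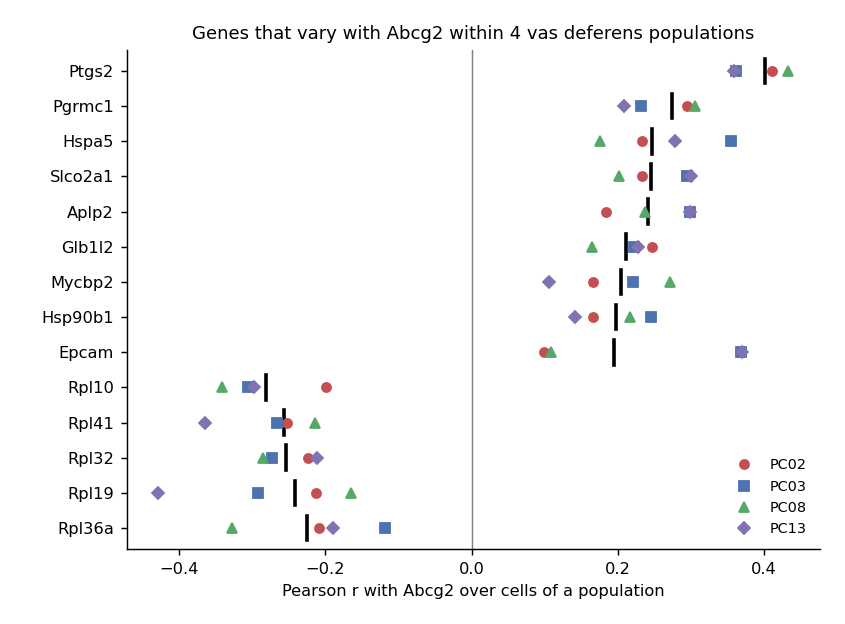
Pearson's r with *Abcg2* over the cells of each vas deferens principal population, for the 9 genes with the highest and the 5 with the lowest mean r. Symbols are the 4 populations and black bars the mean weighted by cells. *Ptgs2* lies between 0.36 and 0.43 in all 4.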

How the data were processed

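The authors sequenced 1 library of 3′ tags per region, called bases with bcl2fastq, aligned reads to mm10 (GRCm38) with HISAT2 2.0.4, counted UMIs on RefSeq genes with ESAT, left out reads with several alignments, merged UMIs 1 base apart, and subtracted ambient RNA with a modified SoupX. The deposited values are these UMI counts, whole numbers for 16892 genes and 8880 cells, with a table of each cell's library, population and UMI count before the subtraction. Some cells had been removed by size factor before deposit.

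From the counts, levels were summed per group as UMIs per 1000000 with exact Poisson 95% intervals, ratios of levels had exact conditional binomial intervals, and shares of cells were counted after drawing 1000 UMIs per cell with a fixed seed. With 1 library a group there was no test and no p-value. The limit for a count of 0 was that of 3 UMIs or 3 cells. A gene was called at 4-fold with at least 20 UMIs in the higher group, with groups below 3 UMIs raised to 3, and genes without 20 UMIs in either group were not compared. Named were *Abcg2*, its G subfamily relatives, list members past the fold rule and the extremes of each list (up to 6 a list), the 10 genes most like *Abcg2* over populations, and the 10 with the highest and 5 with the lowest co-variation, of which 1 is not reported here. The values given for single vas deferens cells of PC07, PC09 and PC11, for single endothelial markers and for *Akr1b7* beside *Abcg2* fall outside it, their choice having come after the values. The gene and the lists were chosen with earlier results of these data known. The likeness over populations and the co-variation within them are descriptions with no p-value.

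Doublets were called in each library by nearest neighbors among simulated doublets, with 1500 variable genes, 30 components and a rate of 0.8% per 1000 cells. 178 cells (2.00%) were called and kept in the main values, and 33.3% (caput), 44.0% (corpus), 38.2% (cauda) and 56.7% (vas deferens) of simulated doublets scored at or above the limit. The fold calls, thinning and co-variation were tested on simulated data. Promoter windows are from RefSeq on GRCm38.p6 and the gene's position from GENCODE vM21. Values were computed in Python 3.11.15 (pandas 2.3.3, numpy 2.4.6, scikit-learn 1.9.0, scipy 1.17.1) and drawn with matplotlib 3.10.9. The alternatives were means over cells, cells with at least 1000 UMIs, UMIs before the ambient subtraction as denominator, other thinning depths, fold and UMI limits, measures of likeness, and called doublets left out. After the data were seen, 3 were added: principal cells split by library, shares at 2 or more UMIs without thinning, and cells with shared barcodes left out. The protein sequence was not used here.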

Additional observations from a re-analysis of the deposited data

Results flagged for a closer look

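The difference in *Abcg2* level between principal and endothelial cells had opposite signs in the epididymis and the vas deferens. Principal minus endothelial was -295 UPM in the caput, -448 UPM in the corpus and -699 UPM in the cauda, and 2927 UPM in the vas deferens. Each is 1 library, so this difference between regions was not tested beyond the counting intervals of the levels. The cauda value rests on 12 endothelial cells.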

How the results depend on the processing

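No paired analysis was possible because each region is 1 library with no replicate. Of 123 alternatives, 66 left a value within its counting interval, or a count within 1.5 times, 57 moved it, and no ratio of levels crossed 1. Among the co-variation values of single genes, which are not in that count, *Rpl32* (0.02), *Rpl19* (0.07) and *Rpl36a* (0.09) turned positive without thinning.

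As a mean over cells the level was 219 UPM in the other principal populations and 67.4 in cells neither principal nor endothelial. The ratios became 17.4 (vas deferens over other principal), 1.41 (endothelium, vas deferens over epididymis) and, for principal over endothelial cells, 0.113 (caput), 0.00572 (cauda) and 5.82 (vas deferens). With only cells of at least 1000 UMIs, the other principal populations held 53.7 UPM (ratio 71.3) and the remaining types 30.9. With UMIs before the ambient subtraction as denominator the vas deferens populations held 3728 UPM. Without called doublets the remaining types held 26.0 UPM. Split by library, the ratio of principal cells was 296.

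The share of positive cells in vas deferens, other principal, endothelial and remaining cells was 75.1%, 2.99%, 52.2% and 4.87% without thinning. At 500 UMIs the moved shares were 68.6% (vas deferens), 23.2% (endothelial) and 1.47% (remaining), and at 2000 UMIs 96.0%, 2.84%, 57.6% and 3.68%. At least 2 UMIs gave 72.6%, 0.853%, 19% and 0.582% after thinning, and without it 75.1% (vas deferens) and 46.1% (endothelial).

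At 2-fold, called genes numbered 1485 and 2011 (vas deferens over other principal, higher and lower), 2523 and 1919 (vas deferens over endothelial), 2034 and 2595 (endothelial over other principal), and 359 and 343 (endothelium, vas deferens over epididymis). At 8-fold they numbered 128 and 690, 372 (higher only), 766 and 464, and 27 and 44. With at least 50 UMIs the moved counts were 735 (lower in vas deferens than other principal), 745 (higher in endothelium than vas deferens), 752 (higher in endothelium than other principal), and 23 and 37 (endothelium, vas deferens over epididymis). At 10 UMIs 193 were higher in epididymal endothelium.

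Of the 10 genes most like *Abcg2*, 1 was shared by Spearman's measure, 6 over the 21 first-round clusters and 0 without the vas deferens library. Of the 10 highest by co-variation, 6 were shared when thinned to 2000 UMIs, 6 without thinning and 6 with another seed. The causes were not tested. Depth limits the low values most: levels near 1 UMI a cell, and shares between libraries that differ in single UMIs, cannot be ranked.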
